A study of Mus musculus with 5 samples.

Results

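The acute phase protein genes measured here were *Lrg1*, *Saa1*, *Saa2*, *Saa3*, *Hp*, *Orm1*, *Orm2*, *Cp*, *Itih4* and *Lcn2*. They were chosen by name as genes of secreted acute phase proteins, with earlier results of these data known. They are 10 of 22911 genes with a symbol on the array. All 10 passed the filter on dim probes, through 14 of their 15 probes. Gene expression was measured in whole colon of C57BL/B6 mice on 5 single-colour Agilent arrays. The Control group had 2 arrays and carried no further allele or agent in its labels. The NT-3N group had 3 arrays of mice injected by vein with NT-3N, which activates the IL-11 receptor, and their colon was taken 3 hr later. The agonist is a modified human IL-11, and its amount is stated in mg in the description of the series and in µg in the methods of the study. The injected mice were 8 weeks old, and the age of the control mice is not given in the sources used here. The study describes the control mice as untreated, so that the effects of being injected and of the agonist cannot be told apart. The comparison asks which genes of the colon respond to a single dose of an IL-11 receptor agonist.

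Acute phase proteins are plasma proteins whose production, mostly in hepatocytes, shifts within hours of injury or infection. Cytokines of the IL-6 family, to which IL-11 belongs, signal through the shared receptor chain gp130 to STAT3, which together with C/EBP and NF-kB factors switches on their genes. Several of these genes are also transcribed outside the liver. Intestinal epithelium makes serum amyloid A and lipocalin 2, fat tissue makes haptoglobin and serum amyloid A3, and endothelium makes leucine-rich alpha-2-glycoprotein.

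The sequences in front of 4 of the genes are shown because *Lrg1* and *Lcn2* were the members that rose at least 2-fold with an unadjusted p under 0.05, and because *Saa1* and *Saa2* moved together on every array. Each runs from 250 bases before to 50 bases after the start of the gene, 5′ to 3′ on the strand of the gene, from RefSeq on GRCm38.p6. *Lrg1* lies at chr17:56121897-56122196 on the minus strand, *Lcn2* at chr2:32387690-32387989 on the minus strand, *Saa1* at chr7:46742931-46743230 on the minus strand and *Saa2* at chr7:46751583-46751882 on the plus strand. Capitals mark a match to a motif described after the sequences.
Lrg1: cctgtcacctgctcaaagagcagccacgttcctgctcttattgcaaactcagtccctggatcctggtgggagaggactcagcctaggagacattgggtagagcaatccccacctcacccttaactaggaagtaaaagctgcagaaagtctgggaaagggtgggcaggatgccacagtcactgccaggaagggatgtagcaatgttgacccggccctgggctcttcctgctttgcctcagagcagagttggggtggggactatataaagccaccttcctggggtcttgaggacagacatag
Lcn2: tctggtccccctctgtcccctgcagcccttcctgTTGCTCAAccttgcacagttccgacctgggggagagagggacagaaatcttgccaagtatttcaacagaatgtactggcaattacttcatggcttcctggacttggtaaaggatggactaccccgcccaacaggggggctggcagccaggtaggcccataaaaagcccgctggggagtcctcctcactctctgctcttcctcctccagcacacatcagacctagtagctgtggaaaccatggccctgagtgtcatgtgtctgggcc
Saa1: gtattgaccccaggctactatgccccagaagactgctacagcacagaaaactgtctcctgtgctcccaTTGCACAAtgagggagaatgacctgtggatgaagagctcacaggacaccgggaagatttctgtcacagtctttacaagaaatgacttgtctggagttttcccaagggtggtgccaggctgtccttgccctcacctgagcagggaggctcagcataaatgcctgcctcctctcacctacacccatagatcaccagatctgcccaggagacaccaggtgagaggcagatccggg
Saa2: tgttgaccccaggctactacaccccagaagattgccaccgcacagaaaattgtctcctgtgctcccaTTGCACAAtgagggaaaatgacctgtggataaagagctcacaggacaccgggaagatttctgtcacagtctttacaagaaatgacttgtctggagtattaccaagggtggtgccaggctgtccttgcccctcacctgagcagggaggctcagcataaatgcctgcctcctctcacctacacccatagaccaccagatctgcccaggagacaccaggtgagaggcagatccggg

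The motifs searched on both strands were TTCNNNGAA for STAT factors, TTGCNNAA for C/EBP factors and the kB consensus, given by name, for NF-kB. None overlapped another in these windows. Of 32851 promoters of the same length, 8.3% held the STAT letters, 10.8% the C/EBP letters and 5.8% the kB consensus. The C/EBP letters began 182 bases before the start of *Saa1*, 183 bases before that of *Saa2* and 216 bases before that of *Lcn2*. They were also present 99 bases before the start of *Saa3*, 120 bases before that of *Orm2* and 70 bases before the second start of *Cp*. The STAT letters were present only before *Itih4*, 51 bases from its start, among the 8 members with a promoter in the table. No promoter was matched for *Hp* and *Orm1*, and the *Lrg1* window held none of the 3 motifs. The *Saa1* and *Saa2* windows were identical at 287 of 301 aligned positions, or 95.3%. A match is a description of letters and not a bound site.

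Of the 10 genes, *Lrg1* alone was called higher after NT-3N at a limma adjusted p under 0.05, and none was called lower. Of all 32917 features tested, 0.125% were called higher and 0.143% were called in either direction. These shares rest on all arrays: the 41 features called higher became 0 without NT-3N replicate 3, 1 without NT-3N replicate 2, 68 without NT-3N replicate 1 and 112 without Control replicate 2. *Lrg1* and *Lcn2* rose at least 2-fold with an unadjusted p under 0.05, which 0.793% of all features did. The arrays of the groups did not overlap for 3 members that were higher after NT-3N, *Lrg1*, *Lcn2* and *Cp*, against 13.5% of all features. *Itih4* was the 1 member lower on all NT-3N arrays, against 14.8% of all features. The log2 difference was positive for 6 members and negative for 4, with a median of 0.23 beside -0.02 over all features. Leaving out Control replicate 2 gave a median of -0.10, and leaving out NT-3N replicate 2 gave 0.41 over the 9 members still tested. With 10 ways to split 5 arrays into 2 and 3, an exact two-sided permutation test of 1 gene cannot go below p = 0.1. The p-values cover the spread between these arrays and their number limits the precision.

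**Figure D1:**
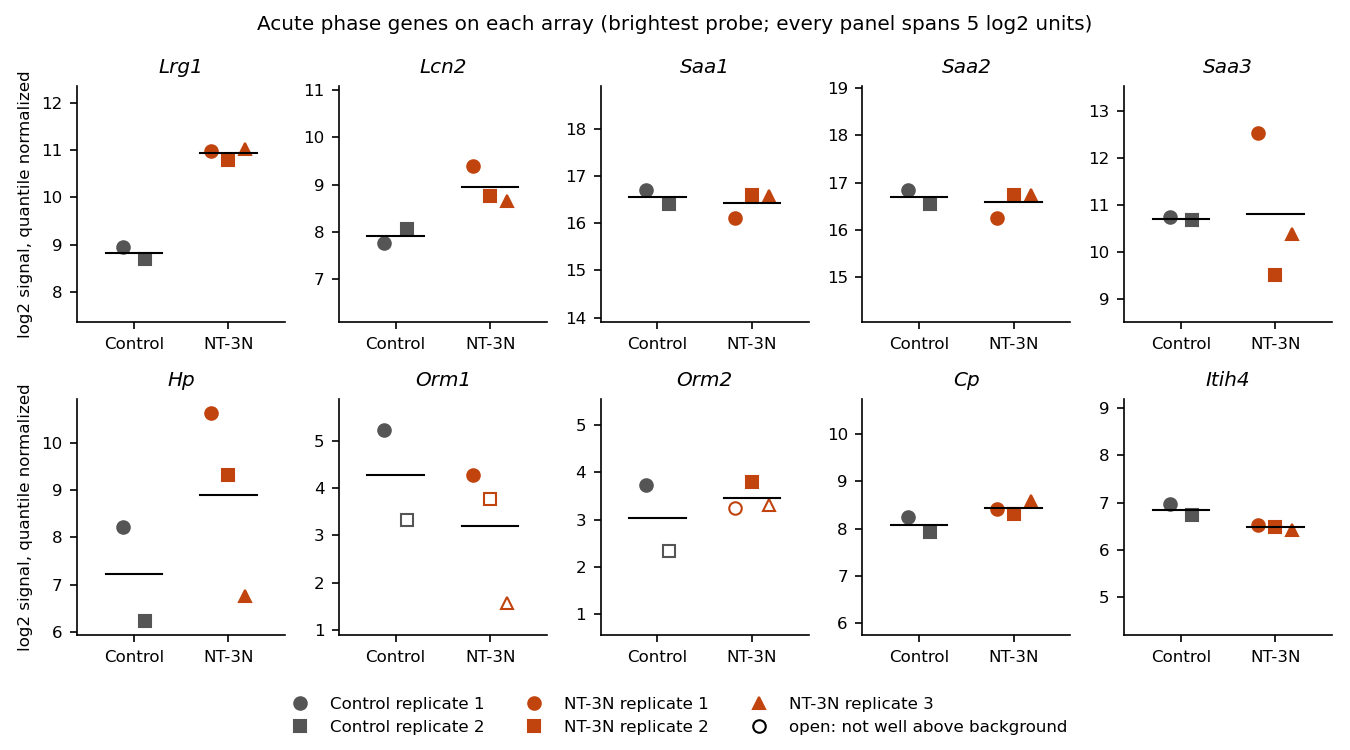
Quantile-normalized log2 signal of the brightest probe of each acute phase gene on the 2 Control arrays (grey) and the 3 NT-3N arrays (orange), with a line at the mean of each group, in panels of equal height. The *Lrg1* arrays lie in separate narrow bands, whereas *Saa3*, *Hp* and *Orm1* spread widely within a group. Open symbols mark arrays on which the probe was not well above background.

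*Lrg1* encodes leucine-rich alpha-2-glycoprotein, a secreted protein of plasma that modulates TGF-beta signalling in endothelium. Its log2 signal was 8.95 and 8.69 on the Control arrays and 10.99, 10.80 and 11.03 on the NT-3N arrays. The lowest NT-3N array lay far above the highest Control array. The group means were 8.82 ± 0.19 (SD, n = 2) and 10.94 ± 0.12 (SD, n = 3). The log2 difference was 2.11 (standard error 0.13, 95% interval 1.80 to 2.42), or 4.33-fold, with a limma adjusted p of 0.00683. Before scaling between arrays, the processed signal of *Lrg1* was 451 and 428 in controls and 1771, 2068 and 2240 after NT-3N. The rise was therefore present in the signal as the scanner software gave it. Without NT-3N replicate 2 the log2 difference of *Lrg1* was 2.18 and its limma adjusted p was 0.0518, and without NT-3N replicate 3 they were 2.06 and 0.08. Both values leave the gene above the threshold of 0.05 while its change stayed near the same size.

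The genes whose pattern over the 5 arrays lay nearest to that of *Lrg1*, by the root mean square difference of mean-centred log2 values among 16736 candidates, were *Ctps*, *Dnah17*, *Gem*, *Ch25h* and *Gfap*, at distances of 0.133, 0.133, 0.140, 0.149 and 0.156. *Ctps* makes CTP, *Gem* is a small GTP-binding protein and *Ch25h* makes 25-hydroxycholesterol. *Dnah17* is a dynein heavy chain and *Gfap* an intermediate filament of glia. Among the other members, the nearest to *Lrg1* was *Lcn2*, at 0.612, a ranking that leaves out acute phase genes outside the members. The 5 genes were picked as the nearest, so that any other candidate had to lie farther.

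*Lcn2* encodes lipocalin 2, which binds bacterial siderophores and is made by epithelium and stored in neutrophil granules. Its brighter probe gave 7.77 and 8.06 on the Control arrays and 9.41, 8.77 and 8.66 on the NT-3N arrays. All NT-3N arrays were higher than both controls, and NT-3N replicate 1 was the highest. The log2 difference was 1.03 (standard error 0.24, 95% interval 0.44 to 1.61), or 2.04-fold, at an unadjusted p of 0.00478 and a limma adjusted p of 0.266. The dimmer *Lcn2* probe gave 4.34 and 4.66 in controls and 6.69, 6.15 and 6.49 after NT-3N. It too separated the groups, with a larger log2 difference of 1.94, or 3.83-fold, and a limma adjusted p of 0.0582 when every probe was tested. The probes of *Lcn2* thus moved the same way but by different amounts. The brighter probe exceeded the dimmer one by 3.43 and 3.39 in controls and by 2.72, 2.62 and 2.17 after NT-3N, without overlap. *Lcn2* was not called under any of the 20 other settings, with log2 differences of 0.80 to 1.48.

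**Figure D2:**
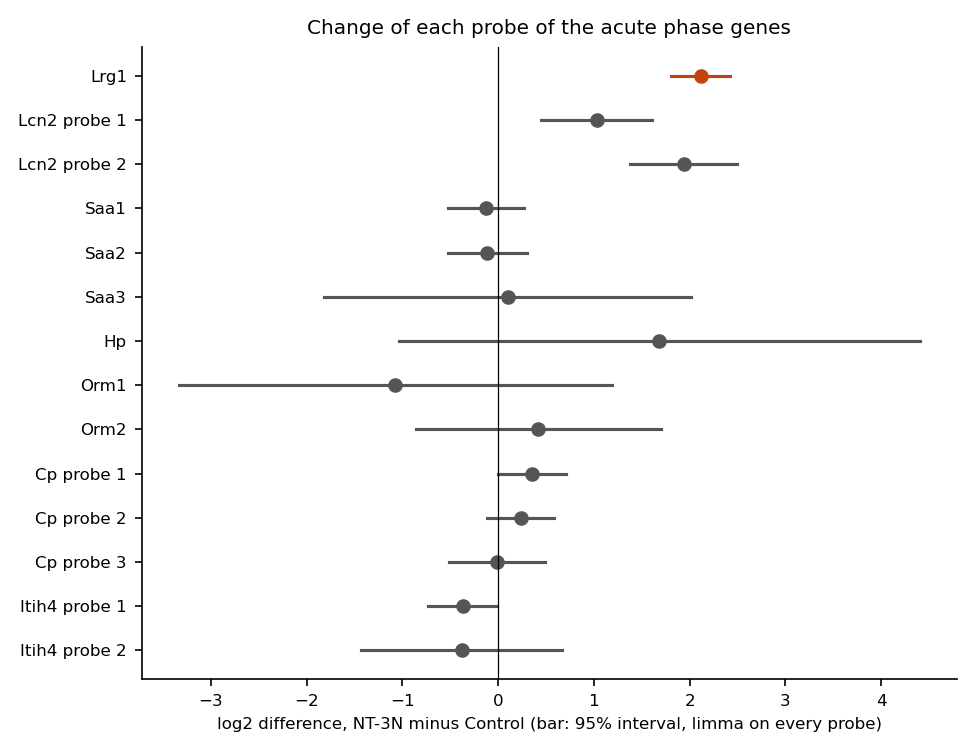
Log2 difference, NT-3N minus Control, for each of the 14 probes of the acute phase genes that passed the filter, with bars for the 95% interval of limma fitted on every probe. *Lrg1* (orange, adjusted p under 0.05) and both *Lcn2* probes have intervals above 0, and *Saa3*, *Hp* and *Orm1* have intervals that reach far to both sides of 0.

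*Saa1* and *Saa2* encode serum amyloid A proteins carried on high-density lipoprotein, which are secreted by liver and by colon epithelium. The *Saa1* probe gave 16.69 and 16.41 in controls and 16.11, 16.59 and 16.57 after NT-3N. The *Saa2* probe gave 16.84 and 16.55 in controls and 16.25, 16.74 and 16.74 after NT-3N. NT-3N replicate 1 was the lowest array for both genes, and the groups overlapped. The log2 difference was -0.13 for *Saa1*, with an interval of -0.53 to 0.27, and -0.11 for *Saa2*, with an interval of -0.53 to 0.31. The limma adjusted p was 0.832 and 0.859. These intervals bound a fall to about 0.53 and a rise to about 0.31 on the log2 scale. The sign is not settled, since it turned positive for both when Control replicate 1 was left out, at 0.01 and 0.04, or NT-3N replicate 1, at 0.03 and 0.05.

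*Saa1* and *Saa2* are neighbours on chromosome 7 and near-identical copies. On the same array the *Saa2* value exceeded the *Saa1* value by between 0.133 and 0.171. The mean-centred patterns differed by a root mean square of 0.0129, the smallest of the 45 pairs of members, and the next smallest was 0.232 for *Saa1* and *Itih4*. Whether each probe detects its own gene alone is uncertain, so that the values may not be independent measurements. No spot was flagged as saturated on any array.

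*Saa3* encodes a serum amyloid A that is made outside the liver, by fat, macrophages and intestinal epithelium. Its values were 10.74 and 10.69 in controls and 12.52, 9.51 and 10.39 after NT-3N. NT-3N replicate 1 lay above both controls and the other NT-3N arrays lay below both. The log2 difference was 0.10 with an interval of -1.83 to 2.03 and a limma adjusted p of 0.979. Without NT-3N replicate 1 the log2 difference of *Saa3* was -0.76. The NT-3N group spread over 3.01 log2 units, whereas the controls differed by 0.05. The *Saa3* window was identical to that of *Saa1* at 50.1% of aligned positions.

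*Hp* encodes haptoglobin, which binds free haemoglobin. It gave 8.21 and 6.23 in controls and 10.64, 9.31 and 6.77 after NT-3N. NT-3N replicates 1 and 2 were above both controls, and NT-3N replicate 3 lay between the controls. The log2 difference of *Hp* was 1.68 (standard error 1.13, interval -1.05 to 4.42), at a limma adjusted p of 0.681. Leaving out 1 array moved it between 0.69 and 2.74. A local-pooled-error test, the kind named in the methods of the study, called *Hp* higher with an adjusted p of 0.00163. The log2 difference of *Hp* in that test, 2.09, is between group medians, whereas the limma fit compares group means. That test also takes its error from features of like signal and not from the spread of the gene itself. *Hp* spread over 1.98 log2 units in controls and 3.87 after NT-3N.

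The signal of adipocyte markers moved with *Hp*. The mean log2 signal of 8 adipocyte markers was 9.97 and 7.97 in controls and 9.57, 8.76 and 7.15 after NT-3N. Control replicate 1 and NT-3N replicate 1 were the highest of their groups for the markers and for *Hp*. The summed signal of the markers was 24063 and 8305 in controls and 17248, 9169 and 4437 after NT-3N. The groups overlapped in both measures, and none of the 8 markers was called. In a fit with the marker mean as a covariate, added after the data had been seen, the log2 difference of *Hp* was 2.32 with a standard error of 0.29, an unadjusted p of 0.000309 and a limma adjusted p of 0.127. In that fit *Hp* rose by 1.35 log2 units for each unit of the marker mean, whereas the *Lrg1* difference was 2.13 with a limma adjusted p of 0.0277. In bulk tissue, fewer cells of a type and less RNA per cell cannot be told apart.

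**Figure D3:**
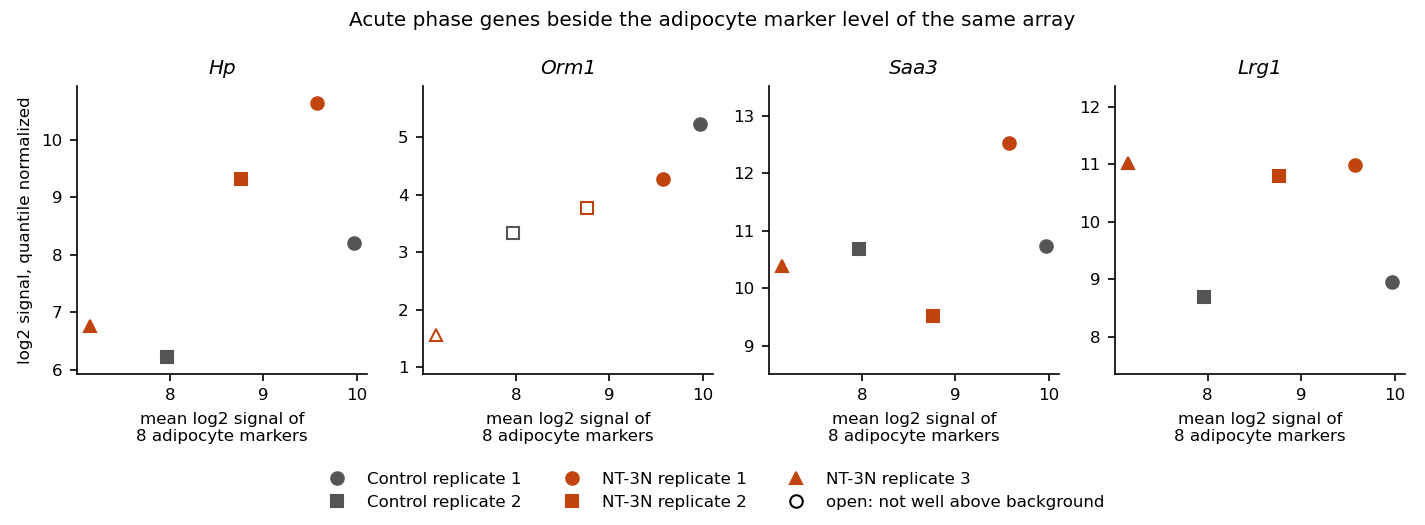
Quantile-normalized log2 signal of *Hp*, *Orm1*, *Saa3* and *Lrg1* (y axes) against the mean log2 signal of 8 adipocyte markers on the same array (x axes), for 2 Control (grey) and 3 NT-3N (orange) arrays. *Hp* is higher on arrays with more adipocyte signal within each group, *Orm1* is well above background only on the arrays with the highest marker mean of each group, and *Lrg1* is split by group. Open symbols are not well above background, and their order is not read.

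*Orm1* and *Orm2* encode orosomucoids, the alpha-1-acid glycoproteins that carry drugs and lipids in plasma. They were near the limit of detection, each well above background on 1 Control array and 1 NT-3N array. *Orm1* gave 5.22 and 3.33 in controls and 4.28, 3.77 and 1.56 after NT-3N, with a log2 difference of -1.08, an interval of -3.34 to 1.19 and a limma adjusted p of 0.749. The arrays with *Orm1* above background, Control replicate 1 and NT-3N replicate 1, were those with the highest adipocyte marker means. With the marker mean as a covariate the log2 difference of *Orm1* was -0.57. *Orm2* gave 3.74 and 2.33 in controls and 3.25, 3.79 and 3.32 after NT-3N, and was above background on Control replicate 1 and NT-3N replicate 2. Its log2 difference was 0.42 with an interval of -0.85 to 1.69, and it was -0.29 without Control replicate 2. The groups overlapped for both genes, and a change was not detectable at this signal.

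*Cp* encodes ceruloplasmin, the copper-carrying ferroxidase of plasma. The brightest of its 4 probes gave 8.25 and 7.92 in controls and 8.43, 8.31 and 8.58 after NT-3N. All NT-3N arrays were higher, by a log2 difference of 0.35 with an interval of -0.01 to 0.72 and a limma adjusted p of 0.532. The second *Cp* probe also did not overlap, at 6.34 and 6.41 in controls and 6.70, 6.52 and 6.62 after NT-3N. The third *Cp* probe, for another transcript accession, overlapped at 6.25 and 6.43 in controls and 6.07, 6.28 and 6.63 after NT-3N, with a log2 difference of -0.01. Its interval of -0.51 to 0.48 holds the differences of the other *Cp* probes, and no *Cp* probe passed the test. The fourth was not well above background on any array.

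*Itih4* encodes the heavy chain H4 of the inter-alpha-trypsin inhibitor family, whose members bind hyaluronan. Its brighter probe gave 6.97 and 6.73 in controls and 6.53, 6.48 and 6.43 after NT-3N. All NT-3N arrays were lower, by a log2 difference of -0.37 with an interval of -0.74 to 0.0019 and a limma adjusted p of 0.521. The dimmer *Itih4* probe gave 5.34 and 4.13 in controls and 4.61, 4.52 and 3.93 after NT-3N, and its groups overlapped. *Itih3*, next to *Itih4* on the chromosome, gave 5.45 and 4.97 in controls and 6.51, 6.51 and 6.53 after NT-3N. The neighbours thus lay on opposite sides, *Itih3* with a log2 difference of 1.31 and a limma adjusted p of 0.111. Their difference from each other was not tested, and *Itih3* was singled out after its values had been seen.

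Other acute phase proteins known to rise in liver were measured as a list of 21 genes, of which 15 were tested. This list and those that follow were chosen with earlier results of these data known, so that their counts are descriptions only. *Serpina3n* and *Lbp* were called higher and none was called lower, beside 0.125% called higher over all features. *Serpina3n*, a serine protease inhibitor, gave 7.36 and 7.32 in controls and 10.53, 10.83 and 10.66 after NT-3N, a log2 difference of 3.33 with a limma adjusted p of 0.00266. *Lbp*, which binds bacterial lipopolysaccharide, gave 6.59 and 6.39 in controls and 8.33, 8.31 and 8.24 after NT-3N, a log2 difference of 1.80 with a limma adjusted p of 0.012. Both genes separated the groups on every array, as *Lrg1* did. Without NT-3N replicate 3 neither passed the threshold, with limma adjusted p of 0.0643 for *Serpina3n* and 0.128 for *Lbp*, and without NT-3N replicate 2 *Lbp* missed it at 0.0964. Of the 14 genes well above background on at least 1 array of each group, the log2 difference was positive for 11 and negative for 3, with a median of 0.54. Of these, 10 were higher on every NT-3N array than on both Control arrays and none was lower, beside 13.5% higher and 14.8% lower over all features. The hepcidin gene *Hamp*, singled out after its values had been seen, was not well above background on either Control array and was at least 3.95-fold higher after NT-3N. It passed the filter through its NT-3N arrays alone, and its limma adjusted p of 0.111 rests on Control values below background. The bound divides the NT-3N mean by the lowest signal well above background on each Control array.

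The fibrinogen chains *Fga*, *Fgb* and *Fgg* and the C-reactive protein gene *Crp* did not pass the filter. *Saa4*, which lies between *Saa3* and *Saa1*, and *Orm3*, which lies between *Orm1* and *Orm2*, did not pass it either. Among 8 paralogs of the members, 6 were tested and none was called, with 3 positive and 3 negative log2 differences and a median of 0.13. Among 8 proteins that fall in the acute phase in liver, such as albumin and transthyretin, 7 were tested and none was called, with log2 differences of -0.55 to 0.40 and a median of 0.17. Their 5 positive and 2 negative values show no shared fall. Among 12 receptors and partners of the member proteins, 11 were tested and none was called, with a median of 0.01.

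**Figure D4:**
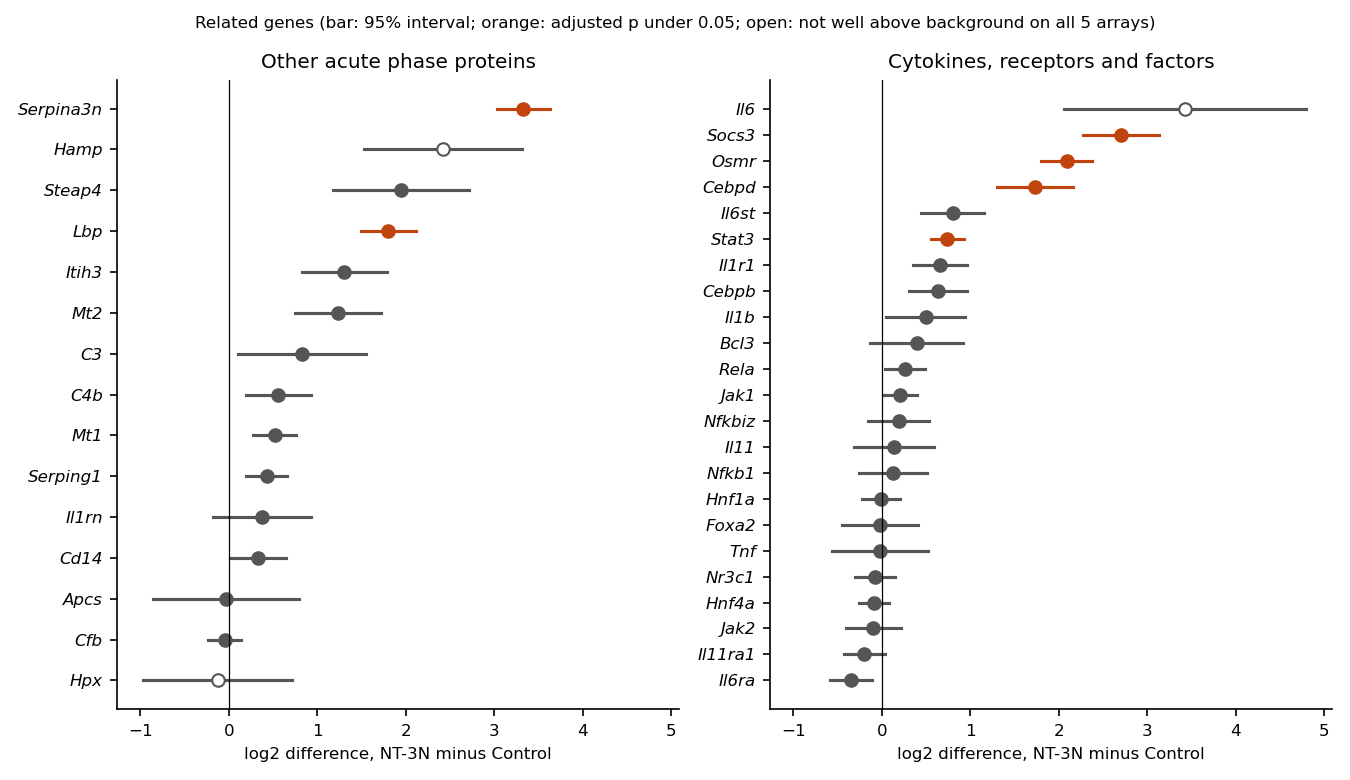
Log2 difference, NT-3N minus Control, with 95% intervals, for 15 other acute phase protein genes (left) and 23 cytokines, receptors and factors that act on acute phase genes (right). *Serpina3n* and *Lbp* on the left and *Socs3*, *Osmr*, *Cebpd* and *Stat3* on the right passed an adjusted p under 0.05 (orange), and open symbols mark genes not well above background on all 5 arrays.

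Of 23 cytokines, receptors and transcription factors of acute phase control, all tested, 4 were called higher and none was called lower. Over all features, 0.125% were called higher. *Socs3*, the feedback inhibitor of gp130 receptors, rose by a log2 difference of 2.71 with a limma adjusted p of 0.00875. *Osmr*, the oncostatin M receptor chain, rose by 2.09 with a limma adjusted p of 0.00574. *Cebpd*, a transcription factor gene, rose by 1.73 with a limma adjusted p of 0.0426, and *Stat3* by 0.74 with a limma adjusted p of 0.0434. The 22 of them well above background on at least 1 array of each group, *Il6* left out, had a median log2 difference of 0.20, with 14 positive and 8 negative. Of these 22, 10 did not overlap and were higher and 2 did not overlap and were lower, beside 13.5% and 14.8% of all features. *Cebpd* and *Stat3* missed the threshold when either Control array was left out, with limma adjusted p between 0.0883 and 0.182, and none of the 4 passed without NT-3N replicate 2 or without NT-3N replicate 3. The ligand-binding receptor *Il11ra1* was lower on every NT-3N array, with a log2 difference of -0.20 at a limma adjusted p of 0.591. For *Il6st*, which encodes the shared signalling chain gp130, it was 0.80 with a limma adjusted p of 0.172.

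Markers of cells that could supply these transcripts were counted beside them, and none was called in any of 10 marker lists. Over all features 0.143% were called in either direction, so that the lack of calls among so few markers is not informative about these cells. The 9 tested colon epithelium markers were well above background on all arrays. Of 10 hepatocyte markers, 9 were above background on all arrays, with summed signals of 4107 and 2347 in controls and 2703, 3269 and 2928 after NT-3N. Among them *Cyp2e1* gave 10.37 and 7.02 in controls and 8.71, 7.78 and 5.70 after NT-3N. Within each group that is the order of the adipocyte marker mean, and the cells behind the summed signal were not tested. *Alb*, the defining hepatocyte product, gave 5.51 and 4.47 in controls and 4.79, 5.89 and 5.47 after NT-3N, so that the groups overlapped. Of 12 neutrophil markers, 11 were on the array and 8 were tested. The 6 well above background on at least 1 array of each group were split into 3 positive and 3 negative, with a median log2 difference of 0.02. *Mpo*, the myeloperoxidase gene, was lower on every NT-3N array, as were 14.8% of all features. Its log2 difference was -0.57 with a limma adjusted p of 0.502, and *Elane* and *Csf3r* gave -0.18 and -0.16. The 3 positive genes were *Ltf* at 0.99, *Mmp8* at 0.50 and *Camp* at 0.19. Of these, *Ltf* and *Camp* were higher on every NT-3N array, as were 13.5% of all features. *Ltf* and *Mmp8* were well above background on only 1 Control array. *S100a9*, a calprotectin subunit, was not well above background in controls and was at least 13.9-fold higher after NT-3N. It passed the filter through its NT-3N arrays alone, as *S100a8* did, and its limma adjusted p of 0.0619 rests on Control values below background. These neutrophil genes were singled out after their values had been seen. Its values after NT-3N were 8.58, 6.23 and 6.65, highest on NT-3N replicate 1, which was also the highest array for *Lcn2* and *Saa3*. *Ngp*, *Cxcr2* and *Retnlg* did not pass the filter. The summed neutrophil signal, 78697 and 77592 in controls and 78125, 64572 and 68268 after NT-3N, came almost wholly from the *Csf3r* probe. Whether that probe reads neutrophils in this tissue was not tested. The part of neutrophils in the *Lcn2* and *Saa3* values was not tested.

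Other marker lists moved by array as well as by group. The summed signal of 6 B cell markers was 4763 and 1089 in controls and 5004, 4430 and 5339 after NT-3N, so that Control replicate 2 stood low. All 6 had positive log2 differences, with a median of 1.06. *Ms4a1*, the 1 marker without overlap, was low on both controls, at 4.95 and 6.53. It gave 9.54, 9.13 and 9.51 after NT-3N, a log2 difference of 3.65 with a limma adjusted p of 0.0595. It was singled out after its values had been seen, and 13.5% of all features were likewise higher without overlap. For 6 smooth muscle markers the summed signal was 445674 and 460166 in controls and 326964, 416455 and 387920 after NT-3N, lower on every NT-3N array. The sums overlapped between the groups for 7 macrophage, 7 fibroblast, 6 endothelium and 3 tested mesothelium markers. The part of these cells in the results was not tested. Each array had between 70.6% and 72.9% of its 56605 probes well above background.

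**Figure D5:**
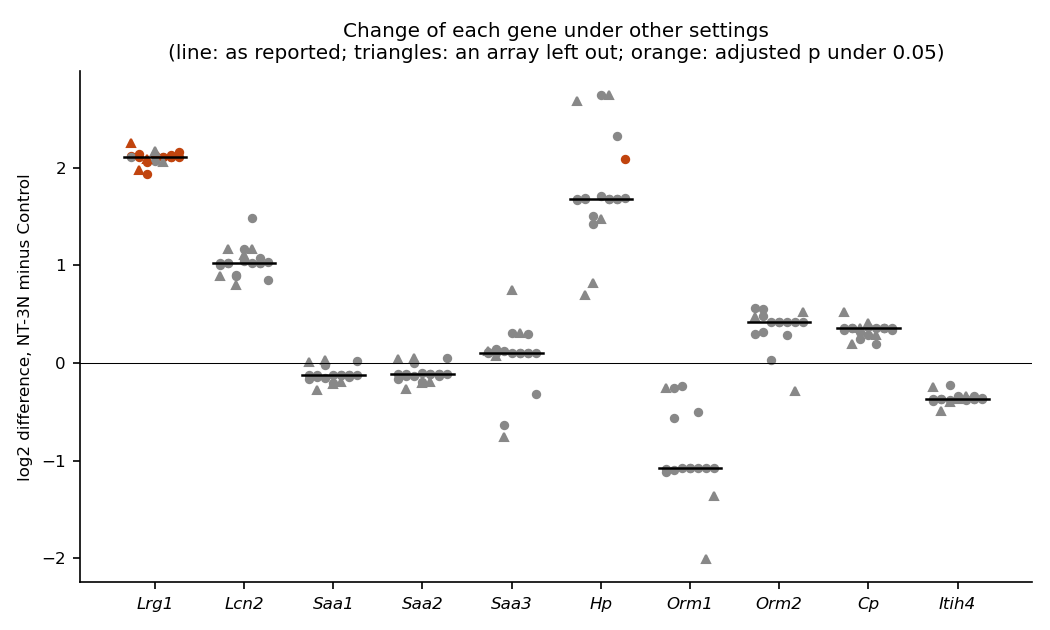
Log2 difference of each acute phase gene under the other settings (points; triangles for an array left out; orange for an adjusted p under 0.05), with a black line at the reported value. *Lrg1* stays between 1.94 and 2.26, *Lcn2* between 0.80 and 1.48, and *Saa3*, *Hp* and *Orm1* move by more than 1 log2 unit.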

How the data were processed

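RNA of whole colon was labelled with Cy3 and hybridised to 5 Agilent arrays. Per the file headers, spots were extracted with Agilent Feature Extraction 11.0.1.1. The deposited spot values are background-subtracted and detrended intensity, not scaled between arrays. The authors also deposited log2 values of 37380 probes, which correlated at 0.99999 with the quantile-normalized scanner signal and served as an alternative. *Orm1*, *Orm2* and the fourth *Cp* probe are not among those 37380 probes.

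Control and outlier spots were left out, signals were log2-transformed and quantile-normalized, and probes well above background on at least 2 arrays were kept. Accessions were named through RefSeq (GRCm38.p6), and each gene was represented by its brightest probe, with other probes given beside it. Quantile normalization sets the same distribution on every array, so that each change is relative to the other probes. NT-3N was tested against Control in R 4.3.3 with limma 3.58.1 (lmFit, and eBayes with an intensity trend) and Benjamini-Hochberg adjustment over 32917 features. The scripts were tested on simulated data. All members, called genes of the other lists, *Il11ra1*, *Il6st*, *Stat3* and the 5 genes nearest to *Lrg1* were named. Every other gene named, with or without values, was singled out afterwards. The members and lists were chosen with earlier results of these data known. Alternatives covered scaling, background, filters, variance model, probe rule, a local-pooled-error test, a replicate block and leaving out each array. No slide block was run, since 1 slide and 1 scan time held every array. The deviations of same-numbered arrays correlated at 0.129 and 0.0357, and the numbers were not taken to pair the samples.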

Additional observations from a re-analysis of the deposited data

How the results depend on the processing

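*Lrg1* kept its direction under all 20 other settings, with log2 differences of 1.94 to 2.26, and was called in 15. The count of members called higher was 1 as reported. It was 0 without the filter on dim probes, without the intensity trend and with the replicate block, and 2 with the local-pooled-error test. Leaving out 1 array gave 0 to 1 members called higher and 0 to 0 called lower. The count at an unadjusted p under 0.05 and 2-fold was 2, and 1 with normexp background correction and with array weights, and 1 to 3 with an array left out. The median log2 difference of the members was 0.076 with normexp and -0.098 to 0.41 with an array left out, over the members still tested. Of the other acute phase proteins raised in liver, 2 were called as reported, 1 without the filter and without the trend, 6 with array weights, 0 with the replicate block, 5 with the local-pooled-error test and 0 to 2 with an array left out. Of the paralogs, 1 was called with array weights, and 0 to 0 with an array left out. Of the cytokines, receptors and factors, 4 were called as reported, 0 without the filter, without the trend and with the replicate block, 2 with the adipocyte covariate and 0 to 6 with an array left out. The cause was not tested.

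The sign turned for *Saa2* (0.00021) and *Saa3* (-0.63) with array weights, and for *Saa1* (0.021), *Saa2* (0.052) and *Saa3* (-0.32) with the local-pooled-error test. That test takes the difference of group medians and not of means. With an array left out, the log2 difference ranged from -0.28 to 0.030 for *Saa1*, -0.27 to 0.049 for *Saa2*, -0.76 to 0.75 for *Saa3* and -0.29 to 0.52 for *Orm2*. The block used replicate numbers that are only names, which leaves 2 pairs. With it, no feature was called, and *Lrg1* had a log2 difference of 2.07 and a limma adjusted p of 0.346. Of all features, 41 were called higher and 6 lower as reported, 2 and 0 without the filter and without the trend, 140 and 60 with array weights, and 192 and 156 with the local-pooled-error test, and 0 to 112 were called higher with an array left out. With 1 Control array left, its spread is taken from the NT-3N arrays. *Orm1* and *Orm2* could not be tested where all arrays had to be above background, with the deposited values or without Control replicate 1. *Orm1* could not be tested without NT-3N replicate 1, nor *Orm2* without NT-3N replicate 2. Dim signal limits *Orm1* and *Orm2*, whose values below background carry no order. The adipocyte covariate was chosen after seeing the data.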
